A study of Mus musculus with 6 samples.

Results

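Glycolysis splits glucose into pyruvate in the cytosol, and the pentose phosphate pathway branches off at glucose 6-phosphate to make NADPH and ribose for nucleotides. Activated lymphocytes are known to take up more glucose and to export much of the pyruvate as lactate, and several steps have alternative isozymes encoded by separate genes. The 31 genes described here cover glucose transport (2 genes), upper glycolysis to the triose phosphates (11), lower glycolysis to pyruvate (6), lactate and pyruvate handling (5) and the pentose phosphate pathway (7). They were chosen by name and pathway step, with earlier results of these data known, and all 31 were among the 18057 genes of the deposited table and among the 14149 genes tested.

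RNA was sequenced from group 2 innate lymphoid cells (ILC2s), tissue lymphocytes that make type 2 cytokines, sorted from the lungs of mice given 3 intranasal injections of 1 µg recombinant mouse IL-33. After sorting, a 24 h culture followed in IL-2 plus IL-7, both at 10 ng/mL. Control cells carried the Il7r-Cre driver according to their genotype label (Il7rcre), although the sample titles call them WT. The Piezo1_KO group carried that driver with floxed Piezo1 (Il7rcrePiezo1flx), a gene for a mechanically gated cation channel, so both groups shared the driver, the IL-33 and the culture. Il7r-Cre acts from the Il7r gene, which lymphoid cells other than ILC2s also use. Each group had 3 libraries. Whether the replicates are separate animals is not stated in the labels, so the p-values below reflect library-to-library spread alone, and that spread may be technical. The sources used here give no age, sex or background strain.

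The libraries held 13059046 to 33459904 estimated counts, with control replicate 2 the deepest and control replicate 3 the shallowest. Piezo1 lay between 160 and 278 CPM (counts scaled to a fixed library total) in control and between 109 and 150 CPM in Piezo1_KO, without overlap, and its log2 fold change of −0.85 ± 0.21 (SE) did not pass the threshold of 0.05 (edgeR adjusted p = 0.112). This and each adjusted p below come from edgeR's quasi-likelihood test, with Benjamini-Hochberg adjustment across the 14149 genes. Counts are summed over the whole gene, so deleted and remaining exons are not separated, and the source of the Piezo1 counts in Piezo1_KO was not tested. All 12 ILC2 markers examined were in the table, with a summed level of 10700 to 11720 CPM in control and 12460 to 13260 CPM in Piezo1_KO. Il5 (mean 4038 and 5159 CPM) and Il2ra (3469 and 4318 CPM) held most of this sum. Of the 12 markers, 2 fell, Il7r and Icos (edgeR adjusted p = 0.00722 and 0.0168). Gata3 (986 and 737 CPM) and Rora (192 and 161 CPM) did not pass (edgeR adjusted p = 0.0612 and 0.32). These 4 were lower in every Piezo1_KO library than in any control library, and 4 others, Il5, Il2ra, Klrg1 and Thy1, were higher in every one. None of these 4 others passed (edgeR adjusted p = 0.12, 0.162, 0.213 and 0.0603). Thy1 had a log2 fold change of 1.06 ± 0.21, from a mean of 7.45 CPM in control. Over all genes tested the shares lower and higher in this way were 10.5% and 10.1%. In these bulk libraries, fewer cells of a type and less RNA per cell cannot be told apart.

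Glycolytic genes are textbook targets of hypoxia-inducible factor, which binds the core ACGTG or GCGTG, so the stretch before the start site is shown for 4 members: both called members with a RefSeq promoter entry (Aldoc and Slc16a3), the uncalled member with the smallest p (Pgam1) and the most abundant member (Ldha). Each is the longest stretch free of annotated exons within 250 bases before the first or only listed start (RefSeq, GRCm38.p6, 5′ to 3′), with ACGTG or GCGTG on either strand in capitals. The windows are chr11:78322823-78322967 for Aldoc, chr11:120948817-120949052 for Slc16a3, chr19:41911621-41911870 for Pgam1 and chr7:46845554-46845803 for Ldha, all on the plus strand.
Aldoc: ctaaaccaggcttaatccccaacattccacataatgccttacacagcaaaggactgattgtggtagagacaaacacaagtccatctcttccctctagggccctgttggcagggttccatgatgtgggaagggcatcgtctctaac
Slc16a3: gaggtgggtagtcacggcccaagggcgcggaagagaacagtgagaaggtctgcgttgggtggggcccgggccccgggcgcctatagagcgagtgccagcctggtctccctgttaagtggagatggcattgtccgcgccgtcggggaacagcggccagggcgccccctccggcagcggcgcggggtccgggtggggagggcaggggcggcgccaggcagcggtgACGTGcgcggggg
Pgam1: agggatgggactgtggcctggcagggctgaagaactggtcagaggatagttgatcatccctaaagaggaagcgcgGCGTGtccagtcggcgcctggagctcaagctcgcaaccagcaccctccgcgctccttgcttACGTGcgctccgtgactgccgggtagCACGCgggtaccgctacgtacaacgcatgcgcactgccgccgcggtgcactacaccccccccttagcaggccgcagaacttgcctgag
Ldha: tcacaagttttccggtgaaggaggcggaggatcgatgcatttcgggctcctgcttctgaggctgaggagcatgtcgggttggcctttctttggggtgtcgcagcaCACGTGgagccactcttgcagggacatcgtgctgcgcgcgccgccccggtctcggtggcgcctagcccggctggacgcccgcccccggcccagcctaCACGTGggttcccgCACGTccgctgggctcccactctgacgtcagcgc
The printed Ldha stretch held 5 such matches, 4 of them from 2 copies of CACGTG read on both strands. The Pgam1 stretch held 3, the Slc16a3 stretch 1 and the Aldoc stretch 0, while the full Aldoc window of 300 bases (250 before and 50 after the start) held 3. Of 30 members with a promoter entry, 26 (86.7%) had at least 1 match in a 300-base window, against 68.3% of the 9644 tested genes with an entry. The longer E-box CACGTG, which contains the core on both strands and so counts as 2 matches, was in a window of 4 members (13.3%) against 12.0% of tested genes, and the GC box GGGCGG in 25 (83.3%) against 68.7%. Genes with several start sites have more windows to match. These are letter matches in a window, not sites shown to be bound, and the window of G6pdx, whose level was lower in every Piezo1_KO library, also held 2.

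Slc2a3 (the glucose transporter GLUT3), Aldoc (aldolase C) and Slc16a3 (the lactate exporter MCT4) rose, 0 members fell, and the other 28 did not pass the threshold. Called genes made up 1.51% of all genes tested (214 of 14149), with 1.00% higher and 0.509% lower. The count of members that rose was 7 without control replicate 2 and 1 (Slc2a3) without any 1 of the other 5 libraries. Of the 31 members, 23 had a positive log2 fold change, against 53.0% of all genes tested, and the median over the members was 0.26 against 0.02 over all genes tested. Without control replicate 1 the median over the members was 0.15. In 13 members every Piezo1_KO library lay above every control library, which held for 10.1% of all genes tested, and in 1 member every Piezo1_KO library lay below, which held for 10.5%. An unadjusted p under 0.05 was reached by 13 members upward, against 6.30% of all genes tested, and by 1 downward, against 6.91%.

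The 24 genes from glucose transport to lactate and the 7 pentose phosphate genes differed in these counts. Of the 24, 20 had a positive log2 fold change, with a median of 0.34 (−0.24 to 1.55), and the 13 members without overlap upward were all among them. Of the 7, 3 were positive, with a median of −0.01 (−0.29 to 0.31), and 1 had no overlap, downward. No test was made of this difference between the branches.

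**Figure D1:**
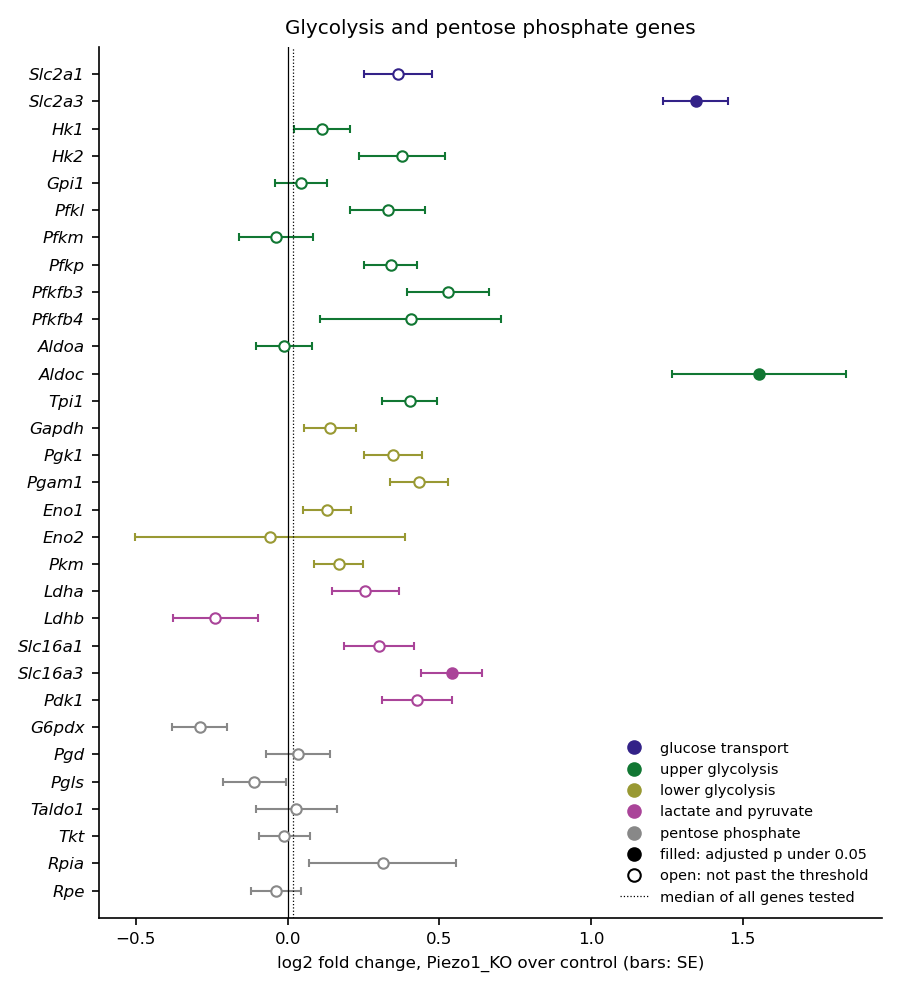
Log2 fold change of each of the 31 genes (x axis, Piezo1_KO over control, bars are SE), listed in pathway order and coloured by step, with filled points past an adjusted p of 0.05. The 3 filled points, Slc2a3, Aldoc and Slc16a3, lie farthest right, and the open grey pentose phosphate genes spread around 0.

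Glucose enters lymphocytes through GLUT1 and GLUT3, encoded by Slc2a1 and Slc2a3. Slc2a3 (ENSMUSG00000003153.10, chromosome 6, 122727809 to 122801640 in mm10, minus strand) was at 55.7, 60.8 and 52.5 CPM in control replicates 1, 2 and 3 and at 135, 159 and 136 CPM in Piezo1_KO replicates 1, 2 and 3. The gap between the groups was wider than the range within either. The log2 fold change was 1.35 ± 0.11 (SE, edgeR adjusted p = 0.00102), and it passed in all 14 alternative fits, with values from 1.26 to 1.39. Slc2a1 was at 217, 269 and 213 CPM in control against 301, 312 and 286 CPM in Piezo1_KO, again without overlap but with a narrower gap. Its log2 fold change of 0.36 ± 0.11 did not pass (edgeR adjusted p = 0.198). It passed in 2 of 14 alternatives, limma-voom with sample quality weights (0.0348) and the fit without control replicate 2 (0.0393).

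Hexokinase traps glucose in the cell, and phosphofructokinase commits it to glycolysis. Hk2, the inducible hexokinase, was at 73.2, 81.7 and 55.8 CPM in control against 98.5, 87.7 and 88.1 CPM in Piezo1_KO, and Hk1, the more abundant form, at 372 ± 30.1 and 403 ± 14.3 CPM (SD, n = 3). Neither passed, with log2 fold changes of 0.38 ± 0.14 and 0.11 ± 0.09 (edgeR adjusted p = 0.299 and 0.675). Without control replicate 3 these were 0.24 and 0.05, and Hk1 was at 0.07 without Piezo1_KO replicate 1. Glucose 6-phosphate isomerase, encoded by Gpi1, was at 772 ± 46.9 CPM in control against 795 ± 36.8 CPM in Piezo1_KO, with overlap.

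The platelet-type and liver-type phosphofructokinase genes were higher by about the same amount in Piezo1_KO, without passing, and the muscle type was near 0. Pfkp was at 673, 687 and 605 CPM in control against 855, 844 and 789 CPM in Piezo1_KO, without overlap, a log2 fold change of 0.34 ± 0.09 (adjusted p = 0.131). Pfkl had 0.33 ± 0.12 (adjusted p = 0.294), with control replicate 2 at 489 CPM overlapping the Piezo1_KO range of 486 to 549 CPM. Pfkm, the lowest of the 3, had −0.04 ± 0.12, and its sign turned without control replicate 2. Pfkfb3 and Pfkfb4 make fructose 2,6-bisphosphate, the allosteric activator of phosphofructokinase. Pfkfb3 was at 17.8, 18.4 and 14.0 CPM in control against 25.4, 23.4 and 24.0 CPM in Piezo1_KO, and its log2 fold change of 0.53 ± 0.13 did not pass (edgeR adjusted p = 0.127) but did in DESeq2 (0.0417) and with protein-coding genes only (0.0497). Pfkfb4 was low and variable in control (3.12, 5.53 and 7.27 CPM) and overlapped with Piezo1_KO (7.52, 7.08 and 6.36 CPM).

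Aldolase splits fructose 1,6-bisphosphate, and 2 of its genes were measured. Aldoc (ENSMUSG00000017390.15, chromosome 11, 78322968 to 78327781, plus strand) was at 5.58, 10.6 and 6.15 CPM in control (82 to 355 counts) and 18.1, 29.1 and 19.3 CPM in Piezo1_KO (428 to 842 counts). The groups did not overlap, and replicate 2 was the highest in both. The log2 fold change was 1.55 ± 0.29 (edgeR adjusted p = 0.0420). The call was lost on leaving out control replicate 1 (0.193), control replicate 3 (0.0771) or any of the Piezo1_KO replicates (0.120, 0.199 and 0.123 for 1, 2 and 3), with values from 1.31 to 1.90 over 14 alternatives. Aldoa, which supplied 99.8% of the aldolase transcript level per length in control, was at 2813 ± 232 CPM in control against 2790 ± 182 CPM in Piezo1_KO (SD, n = 3), and its log2 fold change of −0.01 ± 0.09 changed sign in 5 of 14 alternatives. Triose phosphate isomerase, encoded by Tpi1, was at 1082, 1199 and 1230 CPM in control against 1494, 1670 and 1474 CPM in Piezo1_KO, without overlap. Its log2 fold change of 0.40 ± 0.09 did not pass (edgeR adjusted p = 0.0885), and 3 of 14 alternatives passed, the lowest being DESeq2 (0.0130).

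In lower glycolysis 0 of 6 genes passed, and 2 of 6 had no overlap between the groups. Pgam1, phosphoglycerate mutase, was at 712, 836 and 753 CPM in control against 975, 1105 and 1025 CPM in Piezo1_KO. Its log2 fold change of 0.43 ± 0.09 had the smallest p among the members that did not pass (edgeR adjusted p = 0.0809), and 5 of 14 alternatives passed, with adjusted p from 0.00641 to 0.415. Pgk1, phosphoglycerate kinase, was at 937, 972 and 1018 CPM in control against 1123, 1371 and 1226 CPM in Piezo1_KO, a log2 fold change of 0.35 ± 0.10 (adjusted p = 0.154). Gapdh, Eno1 and Pkm, the abundant dehydrogenase, enolase and pyruvate kinase genes, had log2 fold changes of 0.14, 0.13 and 0.17, each with overlap between the groups and an adjusted p of at least 0.426. Eno2, the neuronal enolase, was near the limit of detection at 11 to 38 counts per library.

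Near-identical copies limit the reading of some of these genes. Eno1b, a retrocopy of Eno1, was at 38.7 CPM in control against 51.4 CPM in Piezo1_KO, and adding its counts to Eno1 left Eno1 short of the threshold. Genes such as Gapdh, Pgk1, Ldha and Eno1 have processed pseudogenes, and how the counting divided such reads is not stated. From 10.2% (Pfkm) to 20.6% (Pgls) of the exon bases of G6pdx, Gpi1, Pfkm, Pkm, Pgls and Rpe lie in exons of another annotated gene. The exons of the 3 called members shared 0 bases with exons of other annotated genes.

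**Figure D2:**
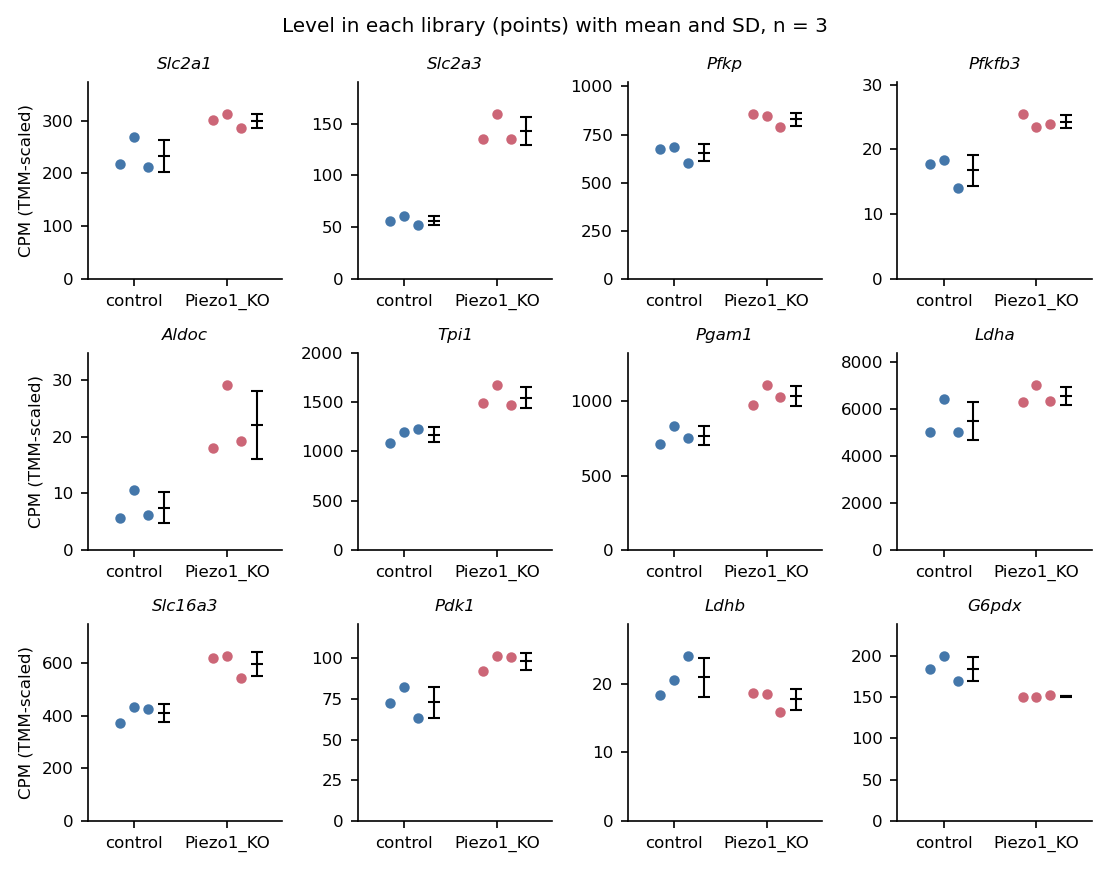
Level of 12 of the genes in each library (y axis, CPM from 0), with control in blue, Piezo1_KO in red and the mean with its SD beside the points. The 12 are a selection that does not represent all 31 members, of which 17 overlapped between the groups. Slc2a3 shows the widest gap relative to its spread, Ldha and Ldhb overlap between groups, and the G6pdx points of Piezo1_KO sit below all 3 of control.

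Lactate dehydrogenase turns pyruvate into lactate, which leaves the cell with a proton through the monocarboxylate transporters. Slc16a3 (ENSMUSG00000025161.16, chromosome 11, 120948480 to 120960868, plus strand) was at 370, 433 and 423 CPM in control against 618, 624 and 542 CPM in Piezo1_KO. Here too the gap between the groups was wider than the range within either. The log2 fold change was 0.54 ± 0.10 (edgeR adjusted p = 0.0429), and 7 of 14 alternatives passed, with adjusted p from 0.000465 to 0.267. Of the 7 that did not pass, 6 were the fits leaving out control replicate 1 (0.192), control replicate 3 (0.0546) or one of the Piezo1_KO replicates (0.172, 0.267 and 0.109 for 1, 2 and 3), and the fit with no filter on low counts (0.0511). Slc16a1, the transporter MCT1, was at 154, 153 and 124 CPM in control against 194, 165 and 172 CPM in Piezo1_KO and did not pass (0.30 ± 0.12, adjusted p = 0.314).

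Ldha, the muscle-type subunit and the most abundant member per length, was at 4991, 6415 and 5015 CPM in control against 6285, 6989 and 6341 CPM in Piezo1_KO. Control replicate 2 overlapped with the Piezo1_KO libraries, and the log2 fold change of 0.26 ± 0.11 did not pass (edgeR adjusted p = 0.379). Ldhb, the heart-type subunit, was at 18.4, 20.5 and 24.0 CPM in control against 18.7, 18.6 and 15.9 CPM in Piezo1_KO (−0.24 ± 0.14, adjusted p = 0.531; −0.14 without control replicate 3). Pdk1, the kinase that shuts pyruvate dehydrogenase and so keeps pyruvate out of the mitochondria, was at 72.4, 82.5 and 63.4 CPM in control against 92.0, 101 and 101 CPM in Piezo1_KO. The groups did not overlap, its log2 fold change was 0.43 ± 0.11 (edgeR adjusted p = 0.141), and 3 of 14 alternatives passed.

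In the pentose phosphate pathway 0 of 7 genes passed. G6pdx, the X-linked glucose 6-phosphate dehydrogenase that opens the pathway, was at 184, 199 and 170 CPM in control against 151, 150 and 152 CPM in Piezo1_KO. It was the only member with all Piezo1_KO libraries below all control libraries, and its log2 fold change of −0.29 ± 0.09 did not pass (edgeR adjusted p = 0.210), nor did it in any of 14 alternatives (0.0846 to 0.660). Its exons share 418 bases (13.6%) with those of Ikbkg on the opposite strand, and whether the counting used strand is not stated. Pgd, which makes the second NADPH of the pathway, was at 163 ± 16.2 and 167 ± 12.2 CPM, and Pgls, the lactonase between them, at 68.8 ± 7.33 and 63.7 ± 2.44 CPM (control and Piezo1_KO, SD, n = 3). Among the enzymes that rearrange the sugars, Tkt (transketolase) was at 390 ± 12.5 CPM in control against 387 ± 20.6 CPM in Piezo1_KO, Taldo1 (transaldolase) at 216 ± 38.6 and 220 ± 12.4 CPM, and Rpe (the ribulose phosphate epimerase) at 81.0 ± 2.16 and 78.8 ± 1.87 CPM. Rpia, the ribose phosphate isomerase, was low at 3.87 to 6.62 CPM in the 6 libraries.

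Levels of different genes were compared per length, as TPM (counts divided by merged exon length and scaled to a fixed total per library). In control the order was led by Ldha (5486 ± 1078 TPM), Aldoa (3195 ± 362), Gapdh (3035 ± 336), Eno1 (2390 ± 44.3) and Pkm (2284 ± 214; SD, n = 3). Aldoa and Gapdh did not differ beyond their spread, nor did Eno1 and Pkm. With the length of the longest transcript in place of merged exons, Eno1 had a higher level (4748 TPM) than Aldoa (4493 TPM), so the order among these 5 depends on the lengths used. The same 5 genes led in Piezo1_KO, and their log2 fold changes lay between −0.01 and 0.26. The lowest levels were those of Eno2 (0.778 TPM), Rpia (2.83 TPM), Pfkfb4 (3.57 TPM), Pfkfb3 (7.35 TPM) and Aldoc (7.61 TPM) in control.

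Isozyme use was then compared within each library as the log2 ratio of 2 isozymes' CPM, with 0.5 CPM added to each, for 8 pairs. The 2 groups of 3 libraries cannot give an exact p below 0.1, so no pair could pass 0.05. The ratio of Slc2a3 to Slc2a1 was −1.95, −2.14 and −2.01 in control and −1.15, −0.97 and −1.08 in Piezo1_KO. It was thus higher in every Piezo1_KO library, by a mean of 0.97 (exact permutation test, two-sided, p = 0.1, adjusted over the 8 pairs 0.2). Per length, Slc2a3 supplied 10.5% ± 0.603 of the summed level of these transporters in control and 18.8% ± 0.976 in Piezo1_KO (SD, n = 3). Aldoc over Aldoa was higher by a mean of 1.54 (−8.52 ± 0.37 in control and −6.98 ± 0.28 in Piezo1_KO, SD, n = 3), without overlap. Even so, Aldoc supplied only 0.697% of the aldolase level per length in Piezo1_KO, against 0.233% in control.

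Hk2 over Hk1 was higher by 0.28 and Ldhb over Ldha lower, with a difference of −0.50, both without overlap between the groups (exact permutation test, p = 0.1, adjusted 0.2 for each). Slc16a3 over Slc16a1 differed by 0.24 with overlap (exact permutation test, p = 0.3, adjusted 0.48), by 0.12 without control replicate 1, 0.15 without Piezo1_KO replicate 2 and 0.37 without control replicate 3. The remaining pairs overlapped. Pfkp over Pfkl differed by 0.002, with −0.088 to 0.077 when single libraries were left out. Pfkfb4 over Pfkfb3 differed by −0.10 and turned to 0.27 without control replicate 3, the library in which Pfkfb4 was highest. Eno2 over Eno1 differed by −0.19, with −0.47 without Piezo1_KO replicate 3 and −0.014 without Piezo1_KO replicate 1 as the extremes.

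**Figure D3:**
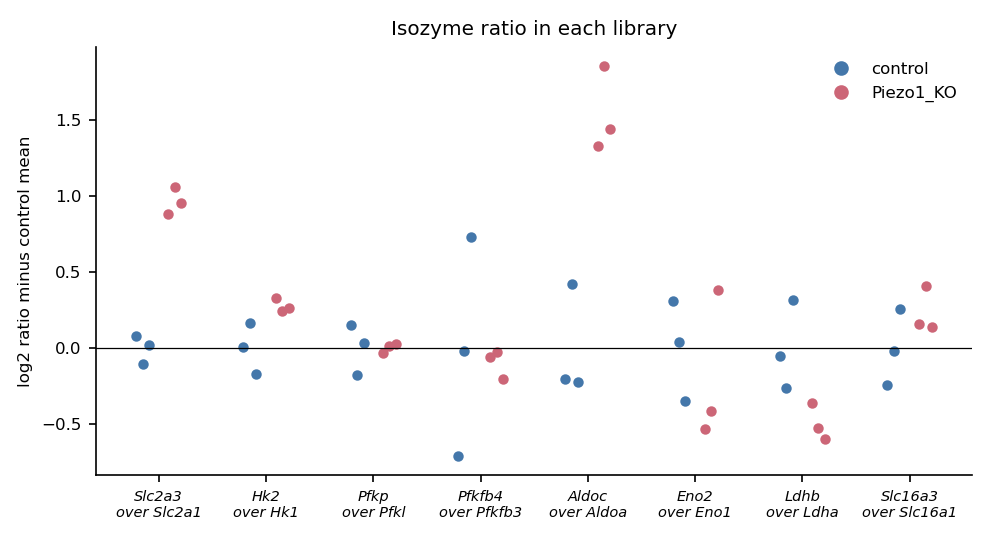
Log2 ratio of each isozyme pair in each library (points), set to 0 at the control mean of that pair, with control in blue and Piezo1_KO in red. The Slc2a3 over Slc2a1 and Aldoc over Aldoa points of Piezo1_KO lie above all control points, and those of Pfkp over Pfkl fall within the control range.

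Summed over all 31 genes, the level was 25191, 28600 and 26368 CPM in control against 30433, 32240 and 29098 CPM in Piezo1_KO. The groups did not overlap, and the ratio of their means was 1.15. In each group the deepest library, replicate 2, had the highest sum, but in control the shallowest library, replicate 3, lay above replicate 1. The part of depth in the difference between the groups was not tested. Most of the increase of 3871 CPM came from genes that did not pass the test on their own. Ldha, Pkm and Gapdh made up 48.6% of it, and the 3 called members 7.4%.

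By step, the ratio of the means was 1.53 for glucose transport, 1.12 for upper glycolysis, 1.13 for lower glycolysis, 1.21 for lactate and pyruvate, and 0.969 for the pentose phosphate pathway. Upper glycolysis overlapped between the groups (5946 to 6755 CPM in control, 6715 to 7413 CPM in Piezo1_KO), as did the pentose phosphate genes (1069 to 1152 and 1036 to 1097 CPM). The sum of the 24 genes from transport to lactate over that of the 7 pentose phosphate genes was 22.6, 25.0 and 21.9 in control and 26.7, 28.7 and 27.1 in Piezo1_KO, so every Piezo1_KO library had the higher ratio. No test was applied to these sums.

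**Figure D4:**
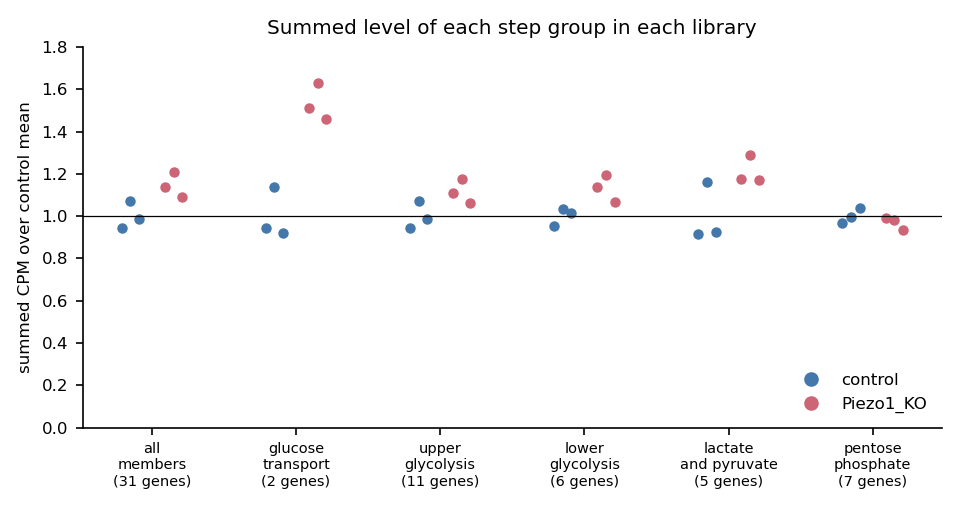
Summed CPM of each step group in each library, divided by the control mean of that group (y axis from 0), with control in blue and Piezo1_KO in red. Glucose transport is the group farthest above 1 in Piezo1_KO, and the pentose phosphate genes lie at or just below 1.

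Genes next to these pathways were counted from lists chosen with earlier results of these data known. Of 26 tested genes for other isozymes and partners of the 31, 0 passed, and the median log2 fold change was 0.03, near that of all genes tested. The smallest p there belonged to Pgm1, a gene of the phosphoglucomutase family, at 99.6 ± 13.6 CPM in control against 146 ± 5.58 CPM in Piezo1_KO (log2 fold change 0.55 ± 0.11, edgeR adjusted p = 0.0694). Of 16 genes of pyruvate entry into mitochondria and the redox shuttles 0 passed, with Pdp2, a phosphatase that reactivates pyruvate dehydrogenase, at 0.34 ± 0.13 (adjusted p = 0.296). Of 16 genes of the glycogen, hexosamine and serine branches 0 passed, with Pygl, glycogen phosphorylase, at 0.51 ± 0.13 (adjusted p = 0.131).

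Among 10 other sources and users of NADPH 1 rose and 1 fell. Nnt, the mitochondrial transhydrogenase, rose from 28.1 ± 1.77 to 42.6 ± 1.59 CPM (SD, n = 3, edgeR adjusted p = 0.0277), and Nqo1, an NADPH-using quinone reductase, fell from 75.0 ± 6.68 to 36.1 ± 4.47 CPM (edgeR adjusted p = 0.00754). Of 20 tested regulators of the pathway 2 rose and 0 fell. Egln3, a prolyl hydroxylase that acts on hypoxia-inducible factor, was at 20.6, 18.6 and 21.3 CPM in control against 57.9, 71.5 and 63.4 CPM in Piezo1_KO, a log2 fold change of 1.68 ± 0.12 (edgeR adjusted p = 0.000484). Epas1, which encodes the factor subunit HIF-2α, was at 24.3, 29.4 and 21.5 CPM in control against 59.1, 58.1 and 57.5 CPM in Piezo1_KO, a log2 fold change of 1.21 ± 0.13 (edgeR adjusted p = 0.00473). Hif1a had −0.18 ± 0.13 (edgeR adjusted p = 0.624), with overlap between the groups, and did not pass. Myc had −0.28 ± 0.11 (edgeR adjusted p = 0.325) and Egln2, of the same family as Egln3, −0.44 ± 0.13 (edgeR adjusted p = 0.195). Both were lower in every Piezo1_KO library without passing. Of the 20 regulators 3 were higher and 3 lower in every Piezo1_KO library, against 10.1% and 10.5% of all genes tested.

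Markers of other cells moved with the groups in part. Of 6 listed erythroid markers 3 were measured, with a summed level of 3.70 to 5.25 CPM in control and 26.7 to 31.3 CPM in Piezo1_KO. Hba-a1 and Hba-a2 rose (edgeR adjusted p = 0.000383 and 0.00531), and Hba-a2 was at 0 in every control library. The 3 measured of 6 B and plasma cell markers summed to 34.4 to 40.3 CPM and 80.2 to 104 CPM, mostly Ighm and Cd79b. Ighm rose (edgeR adjusted p = 0.00473), and Cd79b did not pass (edgeR adjusted p = 0.175). The 3 measured of 6 NK cell and ILC1 markers summed to 86.2 to 114 CPM and 203 to 257 CPM, nearly all Gzmb. Gzmb rose (edgeR adjusted p = 0.00757). Tbx21, also on this list, fell (edgeR adjusted p = 0.017). It was already low in control (mean 1.29 CPM) and was at 0 in every Piezo1_KO library. Ncr1, Eomes and Klrb1c of the same list were not measured. The 7 measured of 10 T cell markers (166 to 208 and 160 to 192 CPM) and the 6 of 8 macrophage and monocyte markers (572 to 711 and 646 to 672 CPM, nearly all Ccr2) overlapped between the groups in their sums. Within the T cell list Lck, a kinase of T cell receptor signalling, rose from 13.2 ± 1.95 to 37.6 ± 4.34 CPM (SD, n = 3, edgeR adjusted p = 0.00384), and Cd3e (−1.24, adjusted p = 0.143) and Trbc2 (−0.32, adjusted p = 0.337) were lower in every Piezo1_KO library without passing. Csf1r, with the smallest p among the macrophage markers, did not pass (adjusted p = 0.209). The sums also overlapped for 2 of 5 epithelial markers (10.9 to 16.0 and 13.8 to 18.5 CPM), where Cdh1 did not pass (adjusted p = 0.151), and for 1 of 6 endothelial and fibroblast markers (at most 0.342 CPM). The 3 measured of 8 granulocyte and mast cell markers were lower in Piezo1_KO (7.62 to 11.9 and 3.55 to 4.73 CPM), and Cma1, a mast cell chymase, fell (edgeR adjusted p = 0.0312). The part of such transcripts in the levels of the glycolytic genes was not tested.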

How the data were processed

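RNA of 6 libraries of sorted mouse lung ILC2s (3 control, 3 Piezo1_KO) was measured. The authors deposited 1 table of estimated counts for each gene and library, matched to samples by the library name in the labels. Many values are fractional, and library totals differ. No scaling step is named in the sources used here. The submitters' processing notes name mm10 as the build, with aligner, counting tool and annotation not given in the sources used here. Depth per library was 13059046 to 33459904 counts. Counts were rounded, filtered with filterByExpr, scaled by the trimmed mean of M-values (TMM) and tested with the edgeR 4.0.16 quasi-likelihood test (R 4.3.3), two-sided, with Benjamini-Hochberg adjustment over 14149 genes and a threshold of 0.05. Standard errors are the absolute log2 fold change over the square root of F. CPM are TMM-scaled. Lengths and positions came from GENCODE M21 (GRCm38, which is mm10), and promoters from RefSeq. The members and the lists were chosen with earlier results of these data known. All 31 members are described, and from each other list the genes past the threshold (at most 3, by p) or the gene with the smallest p. Hif1a, Myc, Egln2, Eno1b, Ccr2, Cd3e, Trbc2, Cd79b, Il5, Il2ra, Klrg1, Thy1, Gata3 and Rora were named after their values were seen. The edgeR fit was tested on simulated data. The alternatives were RLE size factors, no filter, a stricter filter (1 CPM in every library of a group), a replicate block, DESeq2 1.42.0, limma-voom with quality weights (limma 3.58.1), robust quasi-likelihood, protein-coding genes only, each library left out, other pseudocounts and lengths, and plain library totals. Exact permutation tests used SciPy 1.17.1. No replicate pair of a group agreed within sampling noise (chi-square per gene 10.8 to 60.7, where sampling alone gives 1).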

Additional observations from a re-analysis of the deposited data

How the results depend on the processing

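The count of members higher in Piezo1_KO was 3, and it was 8 by DESeq2, 7 by quality-weighted limma-voom, 6 when protein-coding genes alone were tested and 1 to 7 when single libraries were left out (7 without control replicate 2, 1 without any of the other 5). The count of members lower was 0 in every setting run. Over the table, the 142 higher and 72 lower genes became 347 and 235 by DESeq2, 267 and 172 by limma-voom, 256 and 136 for protein-coding genes, and 22 to 209 and 10 to 92 when single libraries were left out. The cause of these shifts was not tested. The replicate numbers did not pair the samples (correlation of same-numbered deviations −0.023, −0.183 and −0.008). No library correlated best with its own number, and the largest correlation was 0.209, between control replicate 3 and Piezo1_KO replicate 2. A block on the replicate number gave 37 higher and 15 lower genes, 2 of them members (Slc2a3 and Aldoc, with Slc16a3 at an adjusted p of 0.185). Among members with a log2 fold change near 0, the sign turned for Pfkm without control replicate 2 (0.015; −0.083 to 0.015 over single libraries), for Aldoa by limma-voom (0.061), among protein-coding genes (0.0013) and without single libraries (−0.075 to 0.026), and for Tkt by limma-voom (0.0001), among protein-coding genes (0.0008) and without single libraries (−0.061 to 0.026). It also turned when single libraries were left out for Eno2 (−0.48 to 0.15), Pgd (−0.032 to 0.095) and Taldo1 (−0.11 to 0.17), and for the differences in isozyme ratio of Pfkp over Pfkl (−0.088 to 0.077) and Pfkfb4 over Pfkfb3 (−0.45 to 0.27). With the longest transcript as length, the log2 level ratio over all 6 libraries went from −1.77 to −2.65 for Hk2 over Hk1, from −0.33 to −0.55 for Pfkp over Pfkl, from −11.74 to −12.40 for Eno2 over Eno1, from −7.20 to −7.80 for Ldhb over Ldha and from 1.37 to 1.66 for Slc16a3 over Slc16a1, and none of the 8 pairs changed order. Other pseudocounts turned no isozyme difference, and plain library totals moved each group's summed levels by less than their SD. Depth limits Eno2, Pfkfb4 and Rpia most, with 11 to 205 counts per library.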
